A study of Mus musculus with 6 samples.

Results

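Osteosarcomas were compared with cells of skeletal muscle, labelled perivascular, that had been selected by their NG2 surface protein with an antibody. In these libraries 11 B cell markers summed to 5657 and 2174 CPM and 12 pericyte markers to 957 and 1517 CPM (read counts scaled to the TMM-adjusted library size). The comparison used 4 of the 6 samples of the series, chosen by their labels: 2 libraries of NG2 sorted cells (NG2 cells 1 and 2) and 2 primary tumours, osteosarcoma 1 from the right tibia and osteosarcoma 2 from the lumbar spine. All animals, those that gave the NG2 cells included, were NG2-Cre;p53flox/flox mice of mixed background, and no treatment or age was given in the sources used here. The other 2 samples were subcutaneous soft tissue sarcomas of the same genotype, which entered the model for its estimate of spread and were used to test where osteosarcoma differed from another tumour. In NG2-Cre mice the recombinase is under control of Cspg4 regulatory sequence. NG2, the proteoglycan that Cspg4 encodes, is carried by pericytes but also made by other cells, such as oligodendrocyte precursors and immature cartilage cells. The sort used NG2 protein rather than a record of Cre activity, and only the muscle cells were described as sorted, so the tumour libraries can hold host cells of bone, marrow and vessel. In such bulk samples fewer cells of a type and less RNA per cell cannot be told apart.

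Osteosarcoma is a bone tumour defined by malignant cells that lay down osteoid, the collagen I matrix of bone. In normal bone, Runx2 and Sp7 commit mesenchymal progenitors to the osteoblast fate, osteoblasts secrete and crosslink collagen I and mineralise it, and buried osteoblasts become osteocytes. Osteoclasts, which arise from the macrophage lineage under Csf1 and RANKL, dissolve that matrix with acid and with proteases such as cathepsin K. Pericytes wrap small vessels and are marked by Rgs5, Pdgfrb and Cspg4 among others.

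Reads counted on genes ranged from 28107779 to 52056569 in the 4 libraries. The labels did not say whether the libraries of a group came from separate animals, so p-values reflect only how far these particular samples spread, which may be technical. The lane number in the deposited names was the same within a group and differed between groups, so lane and group cannot be told apart. Trp53, the floxed gene, had normalised levels of 101 and 82.3 CPM in NG2 cells and 24.3 and 32.6 CPM in osteosarcoma. It was 3.22-fold lower in osteosarcoma (edgeR adjusted p = 0.0172). Counts over the whole gene do not check the deletion. Both groups came from mice of the same genotype, and the share of recombined alleles was not measured. The tibial tumour held both Xist (54.2 CPM) and the Y-linked Ddx3y (14.8 CPM), the latter at 0 to 0.0356 CPM in NG2 cells and the spinal tumour. Whether this library holds cells of more than 1 animal was not tested. Each count below was therefore also computed without each library. Those counts are given for some lists only, and their absence does not mean that a call held. Immunoglobulin genes took 0.974% and 5.1% of the counts in NG2 cells and at most 0.00447% in an osteosarcoma.

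Of 19024 tested genes, 1992 rose in osteosarcoma (10.5%) and 2094 fell (11%), together 21.5%, by edgeR's quasi-likelihood test at a Benjamini-Hochberg adjusted p under 0.05. Rose and fell are used for genes past that threshold, and values in 4 libraries are given in the order NG2 cells 1, NG2 cells 2, tibial tumour, spinal tumour. The median log2 fold change over all tested genes was 0.04, that of the genes that rose 2.48 and that of the genes that fell -3.39. For all 4086 called genes the 2 osteosarcomas lay on one side of both NG2 cell libraries, which was also true of 32.7% (higher) and 32.4% (lower) of all tested genes. With NG2 cells 1, NG2 cells 2, the tibial or the spinal tumour left out, 631, 566, 1583 and 1595 genes rose and 806, 712, 1451 and 1834 fell. Fewer genes were called without an NG2 cell library than without a tumour.

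The gene with the smallest p among the protein-coding genes that rose was Nt5dc2, a predicted nucleotidase, at 1.55, 1.605, 126 and 118 CPM. Its 2 libraries in each group were close together and the groups were far apart, a 77.4-fold rise (log2 6.27 ± 0.31, SE, n = 2 per group; edgeR adjusted p = 0.00419). The next genes by p were Fkbp11, Rcn1 and Serpinh1 of the endoplasmic reticulum, the prolyl hydroxylase P3h1, the collagen chains Col5a2, Col1a1 and Col1a2, the matrix proteoglycan Bgn and the glutathione peroxidase Gpx8. Pdgfc, a ligand of the PDGF receptors, and Lrrc15, a surface protein of mesenchymal cells, completed the first 12. Lrrc15 had 1 count in the 2 NG2 cell libraries together and 13.2 and 14.8 CPM in the tumours.

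At the other end, the smallest p among protein-coding genes that fell was that of Arhgap15, a GTPase-activating protein of leukocytes. It had 291, 261, 7.71 and 7.36 CPM, a 36.6-fold fall (log2 -5.19 ± 0.28). Slc28a2, Lck, Rel, Srgn, Lax1, Cd8b1, H2-Ob, Samsn1 and Ccl22, which are all expressed in lymphoid or myeloid cells, followed together with the immediate early genes Btg2 and Atf3. Slc28a2, a nucleoside transporter, went from 132 and 120 to 0.948 and 0.676 CPM.

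By reads not corrected for length, the 12 protein-coding genes with the highest CPM in osteosarcoma were Col1a1, Col1a2, Mmp13, Sparc, Ibsp, Actb, mt-Co1, Acp5, Eef1a1, H2-D1, Tnc and Ctsk. Their joint share of all counts was 12.5% in the tibial and 11.02% in the spinal tumour, against 2.88% and 2.47% in NG2 cells. Collagen chain genes alone took 7.14% and 5.28% of tumour counts against 0.0424% and 0.0395% in NG2 cells. Corrected for exon length and scaled to the same total in each library, Mmp13 led in the tibial tumour (24340) and Ibsp in the spinal tumour (21200), where Col1a1 stood at 13420 and 7445.

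**Figure D1:**
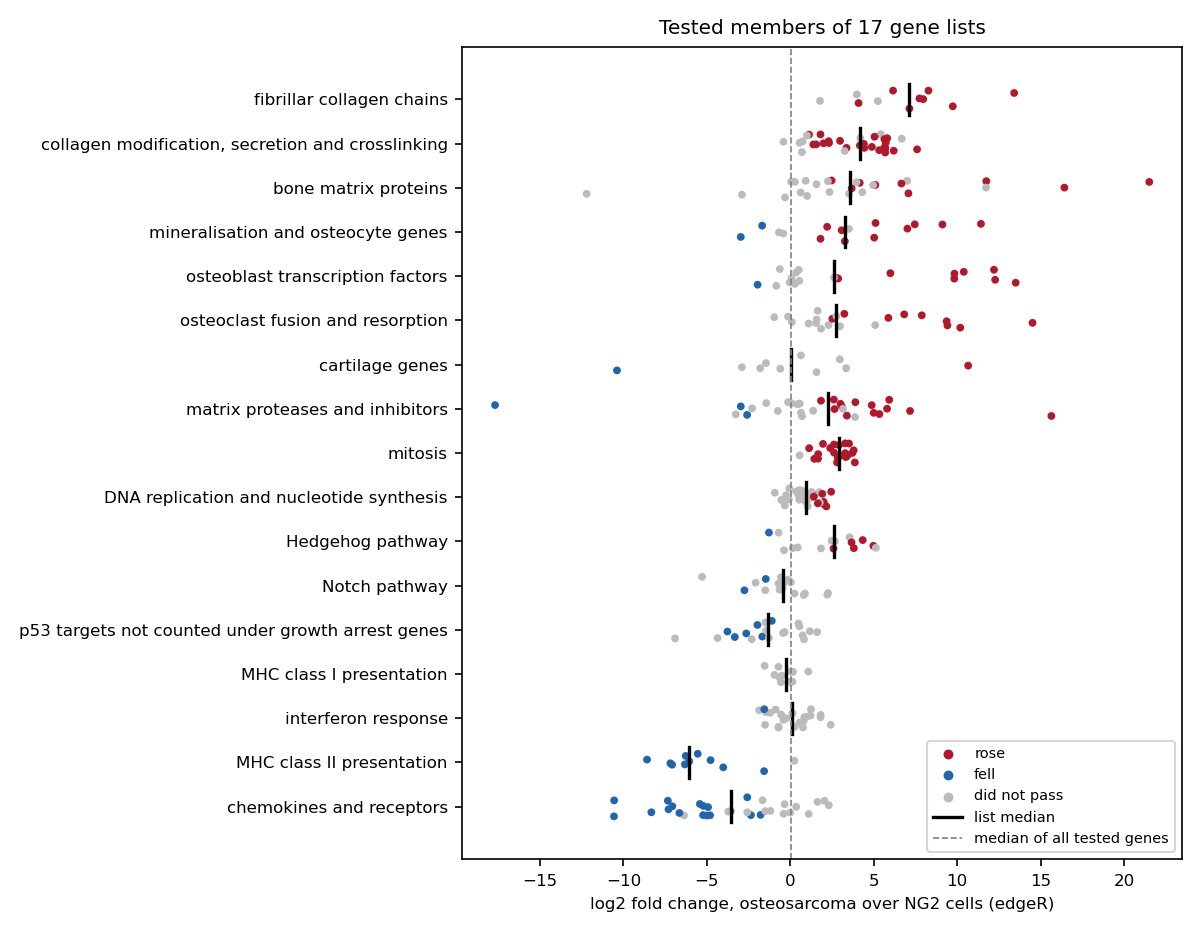
Log2 fold changes of osteosarcoma over NG2 cells (x axis) for the tested members of 17 gene lists (rows); red points rose, blue points fell, grey points did not pass, black bars are list medians and the dashed line is the median of all tested genes (0.04). The fibrillar collagen list lies farthest right with a median of 7.14, and the MHC class II list farthest left at -6.06.

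Fibrillar collagens and the machinery that folds and crosslinks them were higher in both tumours. Of 11 fibrillar chains, 8 rose and none fell, with a median log2 fold change of 7.14. Col1a1, the main chain of bone collagen, had 41.2, 19.1, 32200 and 19600 CPM, so both tumours were far above both NG2 cell libraries. It rose 858-fold (log2 9.74 ± 0.69, edgeR adjusted p = 0.00419) and was called with any 1 library left out (log2 9.30 to 10.40). Col5a2, a chain that sets fibril diameter, had 13.4, 13.0, 2475 and 1255 CPM (141-fold). Col11a2, a chain of cartilage and early bone, was unequal between the tumours at 3.93, 3.21, 485 and 24.1 CPM, and its log2 fold change of 6.16 fell to 2.75 without the tibial tumour. Col3a1, the collagen of soft connective tissue, did not pass (28.5, 17.8, 64.1 and 1698 CPM, adjusted p = 0.0507). Leaving out NG2 cells 1, NG2 cells 2, the tibial or the spinal tumour gave 5, 5, 11 and 8 risen chains.

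Of the 32 genes of collagen modification, secretion and crosslinking, 23 rose and none fell, with a median of 4.19. Serpinh1, the collagen chaperone HSP47, went from 23.3 and 17.3 to 632 and 714 CPM, and P3h1, which hydroxylates prolines of collagen I, from 2.38 and 4.15 to 181 and 146 CPM. Both rises were even between the tumours, 33.1-fold and 50.1-fold. The lysyl hydroxylase Plod2 rose 51.8-fold, the transcription factor Creb3l1, which drives secretion of bone collagen, 73.6-fold (1.44, 4.26, 216 and 204 CPM), and Pcolce, an enhancer of procollagen C-proteinase, 56.2-fold. Sec24d, of the vesicles that carry procollagen out of the endoplasmic reticulum, rose 7.91-fold. Lox, which starts crosslinking, was higher in the spine (1.63, 6.14, 34.8 and 373 CPM; edgeR adjusted p = 0.0329). Without NG2 cells 1, NG2 cells 2, the tibial or the spinal tumour, 14, 14, 24 and 25 of these genes rose.

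The remaining 29 collagen chains were mixed: 8 rose, 2 fell and the median was 2.21. Col22a1, a chain of tissue junctions, had 1 count in the NG2 cell libraries together and 174 and 63.7 CPM in the tumours (edgeR adjusted p = 0.00419). The 3 collagen VI genes, whose products form beaded filaments around cells, rose mainly through the spinal tumour: Col6a2 had 8.37, 11.8, 81.3 and 2488 CPM. Without the spinal tumour the log2 fold changes of Col6a1, Col6a2 and Col6a3 went from 6.41, 6.99 and 6.08 to 2.47, 3.03 and 3.23. Col12a1 behaved alike, at 70.7 CPM in the tibia and 964 in the spine, against at most 5.18 in NG2 cells. Col4a3 and Col17a1, chains of epithelial basement membranes and attachments, fell. The spinal library was also the one with more smooth muscle markers (10 genes summed to 1376 CPM against 352 in the tibial library) and pericyte markers (12 genes, 928 against 343). It also had more RNA of muscle fibre markers (1349 against 18.6 CPM) and endothelial markers (617 against 207 CPM). Of 12 fibroblast markers 3 were higher in the tibial tumour, with a median log2 ratio of tibial over spinal of -1.72, though their sum was higher in the tibia (2211 against 1137 CPM) through Pdgfra. The part of these cells in the values was not tested. The list count moved from 8 risen genes to 2, 2, 12 and 9 with NG2 cells 1, NG2 cells 2, the tibial or the spinal tumour left out.

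Of 26 bone matrix proteins, 9 rose and none fell, with a median log2 fold change of 3.60. Sparc, the collagen-binding osteonectin, rose evenly (389, 299, 14310 and 9334 CPM; 34.3-fold, log2 5.10 ± 0.41, edgeR adjusted p = 0.00447). Ibsp, the bone sialoprotein that seeds mineral, had no count in either NG2 cell library and 439 and 17590 CPM in the tumours. The spinal tumour was 40.1-fold above the tibial one, and the group was at least 170100-fold higher than NG2 cells. Osteocalcin showed the opposite order: Bglap, the hormone-like matrix protein of mature osteoblasts, had 0.0277, 0.321, 1235 and 37.8 CPM, and its near-identical neighbour Bglap2 had 0, 0, 489 and 41.5 CPM, with reads that may be shared between the copies. Spp1, the acidic phosphoprotein osteopontin, was also higher in the tibia (5.98, 31.8, 3167 and 650 CPM; 101-fold). Tnc, a matrix protein of growing bone and wounds, was higher in the spine (11.3, 35.4, 978 and 5348 CPM; 136-fold). Ibsp and Bglap were each called in 2 of the 4 fits that left out 1 library, and Spp1 in 3. Postn, the periosteal protein periostin, was high only in the spinal tumour (54.3, 40.8, 29.4 and 1870 CPM) and did not pass (adjusted p = 0.105). Left out in turn, NG2 cells 1, NG2 cells 2, the tibial and the spinal tumour gave 2, 3, 14 and 10 risen genes.

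**Figure D2:**
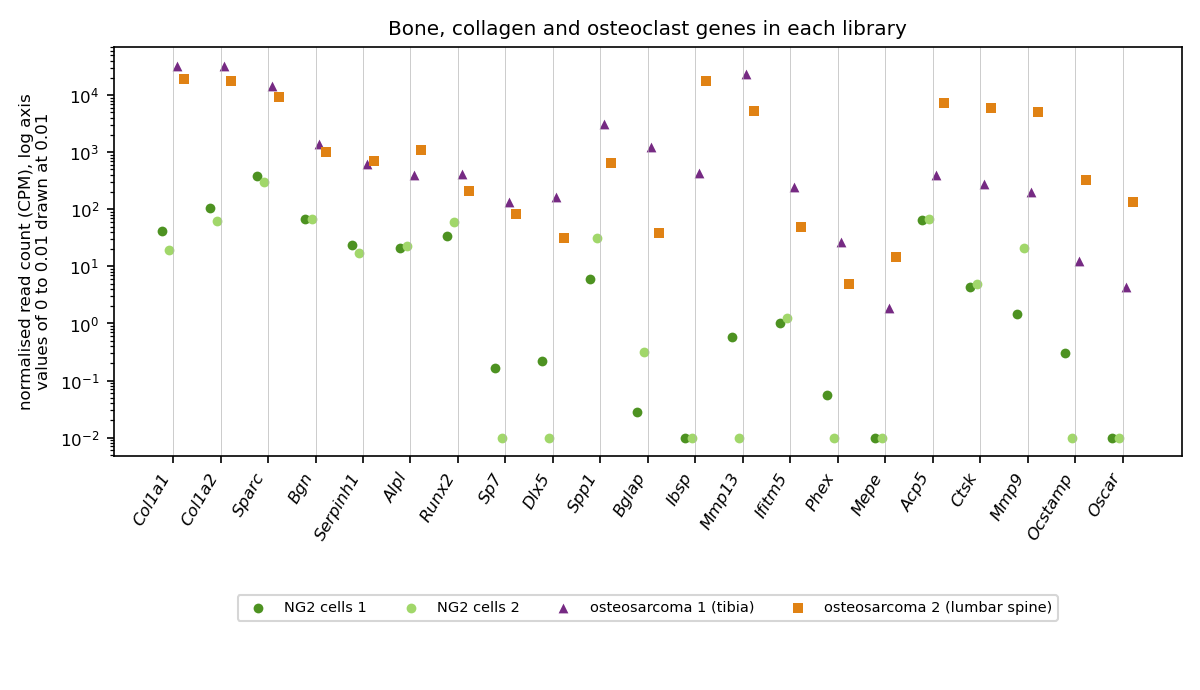
CPM on a log axis (y) of 21 bone, collagen and osteoclast genes (x) in the NG2 cell libraries (green circles), the tibial tumour (purple triangles) and the spinal tumour (orange squares); values of 0 to 0.01 are drawn at 0.01. Both tumours lie above both NG2 cell libraries for every gene shown, with Ibsp and the osteoclast genes at the right higher in the spinal tumour and Bglap higher in the tibial one.

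Mineralisation and osteocyte genes followed, with 10 of 15 tested genes higher, 2 lower and a median of 3.27. Alpl, the alkaline phosphatase that frees phosphate for mineral, had 21, 22.8, 407 and 1103 CPM (34.5-fold, edgeR adjusted p = 0.00674), was called with any 1 library left out and was also called against soft tissue sarcoma. Ifitm5, a membrane protein of mineralising osteoblasts, rose 130-fold (1.02, 1.26, 249 and 49.1 CPM) and the sphingomyelinase Smpd3 32.7-fold. The osteocyte genes Dmp1 (0, 1.38, 185 and 62.0 CPM) and Phex (2 counts in NG2 cells, 27.1 and 5.01 CPM in the tumours) rose more in the tibia. Mepe, another regulator of mineral in osteocytes, had no count in NG2 cells and was low in the tumours, at 1.86 and 14.8 CPM. Sost, the osteocyte inhibitor of bone formation, stayed under the filter, with 0.796 CPM in the tibial tumour and 0 in the spinal one, and Fgf23, the phosphate hormone of osteocytes, had no count in these 4 libraries. The phosphate carriers split: Slc20a2 rose 4.64-fold and Slc20a1 fell 7.83-fold (222, 241, 21.8 and 37.5 CPM). Pdpn, an early osteocyte protein that other cells also make, fell 3.21-fold. Between 2 and 8 of the genes rose when 1 library was left out: 2, 3, 7 and 8 without NG2 cells 1, NG2 cells 2, the tibial and the spinal tumour.

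Of 19 tested osteoblast transcription factors, 9 rose and 1 fell, with a median of 2.62. Sp7, which osteoblasts need downstream of Runx2, had 0.166, 0, 134 and 84.6 CPM (log2 10.40 ± 1.18, edgeR adjusted p = 0.00934). Twist1, a brake on early osteoblasts, had 0.499, 0.298, 31.2 and 19.8 CPM. Both genes were nearly silent in NG2 cells and higher in the tibial than in the spinal tumour. The homeobox genes Dlx5 (0.222, 0, 165 and 31.2 CPM), Dlx3 (0, 0, 62.4 and 7.43 CPM; at least 1150-fold) and Alx4 (0, 0, 22.1 and 6.29 CPM; at least 442-fold) were all higher in the tibia. Runx2, named in addition to the naming rule as the master factor, was already present in NG2 cells, at 33.8, 60.4, 424 and 207 CPM, and rose 6.70-fold. Atf4, the stress factor that osteoblasts use for amino acid supply, fell 3.90-fold (438, 393, 91.3 and 122 CPM), and Msx1 did not pass. With NG2 cells 1, NG2 cells 2, the tibial or the spinal tumour left out, 5, 5, 7 and 10 factors rose.

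Runx2 binds a short core, ACCACA, which reads TGTGGT on the other strand. Its best known targets include Bglap, Spp1, Ibsp and Mmp13. The RefSeq promoters of GRCm38.p6, taken as 250 bases before the annotated start, are shown for 5 of the risen bone genes, 5′ to 3′ on the strand of the gene. Capitals mark each ACCACA or TGTGGT. For Spp1 alone, only a promoter entry with a match was kept for display, so its match was fixed by that choice.
Mmp13, chr9:7272264-7272513, plus strand: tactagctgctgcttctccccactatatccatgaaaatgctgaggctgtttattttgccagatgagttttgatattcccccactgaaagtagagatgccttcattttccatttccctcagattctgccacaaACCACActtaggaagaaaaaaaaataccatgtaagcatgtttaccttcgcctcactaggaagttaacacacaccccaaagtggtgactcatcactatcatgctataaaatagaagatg
Bglap, chr3:88384467-88384716, minus strand: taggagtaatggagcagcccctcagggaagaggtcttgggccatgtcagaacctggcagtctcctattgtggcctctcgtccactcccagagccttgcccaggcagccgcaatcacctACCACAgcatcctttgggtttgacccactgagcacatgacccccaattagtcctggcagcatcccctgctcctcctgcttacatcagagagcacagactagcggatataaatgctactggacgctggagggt
Spp1, chr5:104434861-104435110, plus strand: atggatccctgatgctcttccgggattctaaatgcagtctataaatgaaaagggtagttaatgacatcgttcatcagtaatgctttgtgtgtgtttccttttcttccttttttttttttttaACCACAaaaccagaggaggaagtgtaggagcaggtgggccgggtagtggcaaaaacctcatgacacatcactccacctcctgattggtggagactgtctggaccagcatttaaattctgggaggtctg
Mepe, chr5:104325079-104325328, plus strand: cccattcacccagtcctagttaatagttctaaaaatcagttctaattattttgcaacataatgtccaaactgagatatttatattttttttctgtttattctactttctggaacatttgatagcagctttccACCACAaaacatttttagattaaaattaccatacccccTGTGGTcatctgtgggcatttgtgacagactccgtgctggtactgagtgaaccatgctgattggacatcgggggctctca
Ibsp, chr5:104299037-104299286, plus strand: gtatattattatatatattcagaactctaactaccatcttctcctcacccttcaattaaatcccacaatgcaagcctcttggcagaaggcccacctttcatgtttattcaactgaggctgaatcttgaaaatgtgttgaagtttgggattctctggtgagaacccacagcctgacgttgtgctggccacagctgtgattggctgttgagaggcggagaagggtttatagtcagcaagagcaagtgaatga

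The matches begin 118 bases before the start in Mmp13, 132 in Bglap, 128 in Spp1, and 118 and 80 in Mepe, and Ibsp has none in this window. Such a short core is common: 14% of all 32851 promoters in the table hold it on either strand. Among tested genes the share was 11.4%, among promoters of genes that rose 9.86% (184 of 1867) and among those of genes that fell 12.2%. In the promoters found for risen bone matrix genes it was 3 of 10, for risen mineralisation genes 2 of 10, and for risen fibrillar collagens 0 of 5. A match is a description of letters and not of binding.

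Of 10 tested cartilage genes of 16 listed, 1 rose, 1 fell and the median was 0.02. That median had no stable sign: it was 2.42, 1.08, -0.82 and -0.42 without NG2 cells 1, NG2 cells 2, the tibial and the spinal tumour. Acan, the aggregating proteoglycan of cartilage, rose from no count to 1.88 and 7.86 CPM, and Cytl1, a cartilage cytokine, fell from 3.99 and 4.04 CPM to no count. Sox9, the master factor of cartilage, was high in the tibial tumour only (7.67, 15.02, 160 and 16.8 CPM) and did not pass (edgeR adjusted p = 0.0912).

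Of 21 tested genes of osteoclast fusion and resorption 9 rose and none fell (median 2.76), and their summed counts were far higher in the spinal tumour than in the other libraries. The 22 listed genes summed to 821 and 699 CPM in NG2 cells, 1449 CPM in the tibial and 23170 CPM in the spinal tumour. None of the 21 was higher in the tibial than in the spinal tumour. Ctsk, the collagen-cutting cathepsin K, had 4.35, 4.86, 276 and 6018 CPM, and Acp5, the tartrate-resistant phosphatase, 64.6, 69.1, 395 and 7465 CPM. The groups did not overlap for either gene, but the tibial tumour lay nearer to NG2 cells than to the spinal tumour on the linear scale. Mmp9, the gelatinase of resorbing cells, had 1.44, 21.1, 200 and 5124 CPM, and Oscar, an osteoclast receptor for collagen, 0, 0, 4.32 and 137 CPM. Dcstamp, which fuses osteoclast precursors, was high only in the spinal tumour and did not pass (6.54, 6.12, 9.74 and 423 CPM, edgeR adjusted p = 0.0769). Without the spinal tumour, Ctsk, Acp5 and Mmp9 went from log2 9.42, 5.88 and 7.88 to 5.92, 2.58 and 4.16. The count of risen members was 0 without either NG2 cell library, 16 without the tibial tumour and 3 without the spinal one. The 12 macrophage markers summed to 812, 1672, 2068 and 1962 CPM. Of these, 9 were higher in the tibial than in the spinal tumour, with a median log2 ratio of tibial over spinal of 1.19. The part of macrophage-lineage cells in the osteoclast values was not tested.

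Signals that make osteoclasts were split, with 3 of 15 higher and 2 lower. Csf1, the growth factor of macrophages and osteoclasts, had 9.47, 18.7, 149 and 307 CPM (16.2-fold, edgeR adjusted p = 0.00917). Pth1r, the parathyroid hormone receptor of osteoblasts, had 2.55, 0, 175 and 222 CPM, and Vdr, the vitamin D receptor, rose 24.6-fold. All 3 were called with any 1 library left out. RANKL and its decoy did not pass: Tnfsf11 had 0.914, 3.10, 5.99 and 29.0 CPM (adjusted p = 0.0706) and Tnfrsf11b, the decoy osteoprotegerin, 1.19, 0, 63.1 and 8.68 CPM (adjusted p = 0.0768). Their order between the tumours was opposite, with RANKL higher in the spine and osteoprotegerin higher in the tibia. Tnf and Ptger4, expressed by leukocytes, fell 48.7-fold and 11.1-fold.

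Among 30 tested matrix proteases and inhibitors, 14 rose and 3 fell, with a median of 2.23. Mmp13, the collagenase of bone and growth plate, went from 0.582 and 0 CPM to 23790 and 5232 CPM, and lay in a block of genes raised in the tibial tumour that is described below. Without the tibial tumour its log2 fold change was still 14.19, against 15.65 with all libraries. The membrane collagenase Mmp14 (4.68, 8.09, 145 and 567 CPM; 55.7-fold), Mmp23 (61.2-fold) and the stromal protease Fap (29.3-fold) also rose. The inhibitors diverged: Timp1 rose 146-fold (0.831, 4.86, 347 and 482 CPM), Timp3 fell 7.85-fold, and Timp4 fell from 736 and 540 CPM to no count in either tumour, at least 16960-fold. Serpinf1, the matrix protein PEDF whose loss causes brittle bones, rose 14.9-fold. Left out in turn, NG2 cells 1, NG2 cells 2, the tibial and the spinal tumour gave 5, 6, 13 and 10 risen genes.

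Adhesion receptors changed both ways: of 28 integrins and cadherins, 7 rose and 5 fell, with a median of -0.05. The sign of that median was not stable. It was -0.59, 0.98, -0.26 and -0.6 without NG2 cells 1, NG2 cells 2, the tibial and the spinal tumour. Cdh11, the osteoblast cadherin, had 2.63, 3.16, 440 and 188 CPM (108-fold, edgeR adjusted p = 0.00487), and Cdh2, N-cadherin, rose 29.8-fold. The collagen-binding integrins Itga11 and Itga10 rose 25.8-fold and 29.1-fold. Cdh15, known as the cadherin of myoblasts, rose 50.5-fold, at 45.2 and 43.8 CPM in the tumours. The leukocyte integrins Itga4 (124, 95.8, 12.7 and 11.3 CPM) and Itgal fell 9.16-fold and 14.5-fold, and Itga1, another collagen-binding integrin, fell 8.20-fold.

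Growth factor receptors and ligands moved in both directions. In the PDGF, FGF, VEGF and MET families, 13 of 40 genes rose, 4 fell and the median was 1.10. Without the spinal tumour the median was -0.83 and 10 genes fell. Pdgfc had 2.47, 1.79, 77.2 and 74.0 CPM, a 35.5-fold rise. The receptor Pdgfrb rose 9.02-fold (20.1, 28.9, 95.7 and 346 CPM). Pdgfra had 20.8, 10.6, 1715 and 114 CPM, and its log2 fold change of 5.86 was 2.86 without the tibial tumour. Fgfr2, whose activating variants fuse skull bones early, had 0.776, 0.0229, 59.1 and 76.2 CPM, Fgfr1 rose 6.93-fold and Nrp2, a co-receptor of VEGF and semaphorin, 17.4-fold (31.4, 56.2, 755 and 769 CPM). These 3 receptors were nearly equal in both tumours. Flt1, Kit, Erbb3 and Nrp1 fell, and of these Flt1 marks endothelium, Kit mast cells and Erbb3 Schwann cells. With NG2 cells 1, NG2 cells 2, the tibial or the spinal tumour left out, 5, 5, 14 and 10 genes rose.

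In the IGF axis 4 of 16 genes rose and 2 fell. The adaptors of the insulin and IGF receptors split: Irs1 rose 13.5-fold (3.33, 2.09, 59.5 and 13.6 CPM) and Irs2 fell 35.1-fold (836, 365, 21.5 and 12.7 CPM; edgeR adjusted p = 0.0078). Igf1 fell 2.997-fold, Igf2 and the receptor Igf1r did not pass, and Igfbp3, an IGF carrier, rose 10.3-fold. No member rose without either NG2 cell library.

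TGF-beta and BMP genes included 14 that rose and 4 that fell of 46, with a median of 1.54. Smad9, a transducer of BMP signals, had no count in NG2 cells and 34.4 and 7.22 CPM in the tumours. The BMP receptors Acvr1 (10.4, 10.6, 48.9 and 49.1 CPM; 4.67-fold) and Bmpr1a (3.94-fold) rose evenly, as did the activin chain Inhba (4.95-fold). Bmp3, a BMP antagonist of bone, had 0.637, 0.963, 111 and 8.25 CPM. Id2 and Smad7, early targets of the pathway, fell 6.16-fold and 2.45-fold, and Id1, another target, did not pass (35.3, 41.6, 18.6 and 19.1 CPM, edgeR adjusted p = 0.0844). The ligands Bmp2, Bmp4 and Tgfb1 did not pass. Counts of 2, 4, 15 and 13 risen genes were found without NG2 cells 1, NG2 cells 2, the tibial and the spinal tumour.

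Of 15 tested Hedgehog genes, 5 rose, 1 fell and the median was 2.59. The signal transducer Smo had 4.29, 3.78, 60.7 and 41.8 CPM (12.7-fold, edgeR adjusted p = 0.00552) and was called with any 1 library left out. The cilium protein Evc rose 14.1-fold, the co-receptor Boc 20.2-fold, and the transcription factors Gli2 (0.388, 0.252, 14.8 and 5.48 CPM) and Gli3 31.7-fold and 6.03-fold. The usual readouts of an active pathway, Gli1 and Ptch1, did not pass (5.24, 3.65, 7.16 and 4.94 CPM for Ptch1, adjusted p = 0.639). Sufu, the inhibitor, fell 2.43-fold. With 1 library left out the list median was 2.31 to 2.97, and the fall of Sufu was not called in any of those fits.

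None of 18 Notch genes rose by edgeR (1 was higher at an unadjusted p under 0.05, and 1 by DESeq2), and Mfng and Hes1, a glycosyltransferase and a target of the pathway, fell 6.70-fold and 2.76-fold. Of 20 Hippo genes and YAP targets 3 rose and 1 fell. Tead1, the DNA-binding partner of YAP, rose 6.55-fold and was even (8.89, 11.9, 64.5 and 71.5 CPM), Ccn2 rose 9.42-fold, and the kinase Stk4 fell 4.74-fold. Yap1 had 4.13, 15.96, 1757 and 39.8 CPM and did not pass (edgeR adjusted p = 0.0531).

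Of 23 genes of mitosis 22 rose, with a median of 2.92. Cenpe, the kinetochore motor, had 13.1, 14.4, 146 and 145 CPM (10.6-fold, log2 3.41 ± 0.27, edgeR adjusted p = 0.00419). Cdc20, the activator of the anaphase complex, rose 13.95-fold (8.40, 4.20, 92.8 and 82.8 CPM) and Foxm1, the transcription factor of mitotic genes, 14.6-fold. All 23 genes were higher in the tibial than in the spinal tumour, with a median log2 ratio of 0.61. Without NG2 cells 1, NG2 cells 2, the tibial or the spinal tumour, 14, 13, 13 and 21 of them rose.

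DNA replication genes moved less, with 8 of 32 higher, none lower and a median of 0.95. Cdc45 rose 4.005-fold (7.84, 5.92, 33.3 and 21.8 CPM) and thymidylate synthase, Tyms, 3.78-fold. Pcna, the sliding clamp, did not pass and was lower in the tumours (215, 136, 125 and 59.6 CPM, edgeR adjusted p = 0.166). As in mitosis, all 32 genes were higher in the tibial tumour. The count depended on the libraries: no gene rose without either NG2 cell library, 1 without the tibial tumour and 15 without the spinal one.

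Among 31 genes of Myc, G1 cyclins, CDK inhibitors, Rb and E2F, 7 rose and 3 fell. Cdkn2a, which encodes the inhibitor p16 and the p53 activator p19Arf, had 3 counts in the NG2 cell libraries together and 13.9 and 7.68 CPM in the tumours. Its neighbour Cdkn2b, the inhibitor p15, rose 10.7-fold (3.74, 1.61, 37.1 and 19.8 CPM). Cdk4 (126, 81.2, 361 and 461 CPM; 3.97-fold), the G1 cyclins Ccnd1 (9.10-fold) and Ccne1 (5.60-fold) also rose. Cdkn1b, the inhibitor p27, fell 2.54-fold. Myc was lower in both tumours but did not pass (497, 286, 174 and 96.1 CPM, edgeR adjusted p = 0.0528), and Rb1 did not pass (24.3, 33.5, 20.0 and 17.4 CPM). Cdk6 had 32.0, 57.4, 2508 and 55.4 CPM, a high value in the tibial tumour alone. Without 1 library, 4, 1, 5 and 6 genes rose, in the order NG2 cells 1, NG2 cells 2, tibial, spinal.

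Of 23 genes recurrently altered in human osteosarcoma 6 rose and 4 fell, among them several named above. Ptprd, a receptor phosphatase, rose 36.6-fold (5.15, 5.53, 129 and 263 CPM), while Mdm4, an inhibitor of p53, and Jun, an immediate early gene, fell 3.16-fold and 12.5-fold. Atrx and Dlg2, both often disrupted in human tumours, did not pass. The repair helicase Recql4, mutated in an inherited syndrome with osteosarcoma, rose 6.92-fold (0.803, 1.40, 8.62 and 6.61 CPM) and Wrn, another such helicase, fell 2.30-fold. Of 23 genes in the list of homologous recombination and DNA damage response 2 rose and 1 fell. The rises depended on the libraries kept, and the fall was not called with any 1 library left out.

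Targets of p53 beyond the growth arrest genes fell in 6 of 20 cases and rose in none (median -1.36). The death receptor Fas had 49.9, 75.6, 2.77 and 6.43 CPM (13.6-fold lower, edgeR adjusted p = 0.015), Trp53inp1 fell 10.1-fold, Tnfrsf10b 3.93-fold and Bbc3, the BH3 protein PUMA, 3.21-fold. Ccng1, a sensitive target, did not pass (53.8, 80.9, 50.7 and 56.0 CPM). No target fell without NG2 cells 2, and 3, 4 and 6 fell without NG2 cells 1, the tibial and the spinal tumour. Of 21 apoptosis regulators 4 fell and 1 rose, while 21.5% of all tested genes were called in either direction. The survival genes Bcl2l1 (314, 390, 100 and 56.3 CPM), Mcl1 and Cflar fell 4.49-fold, 3.47-fold and 2.46-fold. The killer Bcl2l11 fell 6.66-fold and Bad rose 3.45-fold. No apoptosis regulator fell without either NG2 cell library, and 5 and 3 fell without the tibial and the spinal tumour. B cell markers moved with these falls (11 genes summed to 5657 and 2174 CPM in NG2 cells and 123 and 135 CPM in the tumours), and their part in them was not tested.

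Neighbouring genes were raised together in the tibial tumour. After the data had been seen, a run was defined as at least 8 neighbouring protein-coding genes with a log2 ratio of the 2 libraries of a group over 1.5, allowing gaps of 1 gene, among genes with a mean of at least 5 CPM. Among 10597 such genes 3 runs were found between the osteosarcomas, all higher in the tibial one, and none between the 2 NG2 cell libraries or the 2 soft tissue sarcomas. With thresholds of 1 and 2 the osteosarcomas gave 6 and 3 runs and the other pairs still none. At the threshold of 1, 3 of the 6 runs were higher in the spinal tumour. A second rule, at least 5 genes in a row without a gap, gave 4 runs between the osteosarcomas at 1.5. Of these, 3 were higher in the tibial tumour and 1, Lynx1 to Ly6c2 on chromosome 15, in the spinal one. At 1 this rule gave 11 runs, 7 of them higher in the spinal tumour, and it gave none in the other pairs. The runs described below are those of the first rule at 1.5.

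The first run lay on chromosome 5 (chr5:3341485-4197651, GRCm38) from Cdk6 to Mterf1b, 12 genes of which 11 passed. Its genes had a median log2 ratio of 4.71 between the tumours, against -0.16 between the NG2 cell libraries, and the spinal tumour was at the level of NG2 cells (median log2 ratio -0.11). Summed over the run, CPM were 697 and 697 in NG2 cells, 12250 in the tibial tumour and 526 in the spinal one. Cdk6, the G1 kinase, was 45.3-fold and Gatad1, a chromatin protein, 36.2-fold higher in the tibia (3289 against 90.9 CPM). Krit1, Akap9, Ankib1, Rbm48 and Fam133b were 12.6-fold to 38.5-fold higher, and reads of the near-identical Mterf1a and Mterf1b may be shared. Cyp51, the sterol demethylase inside the run, was not raised (46.6 and 51.4 CPM), nor was the next gene, Fzd1 (17.3 and 20.8 CPM). Though 11 of the 12 genes were highest of all 6 libraries in the tibial tumour, none passed the test between groups, which takes both tumours together.

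The second run (chr5:73019987-75198215) went from Fryl to Pdgfra, 12 genes of which 10 passed, with a median log2 ratio of 3.43. Summed CPM were 642 and 646 in NG2 cells, 6680 in the tibial and 583 in the spinal tumour. Besides Pdgfra, 15.03-fold higher in the tibia, it held Ociad1 (2127 against 200 CPM), Fip1l1 (887 against 79.9 CPM), Usp46, Scfd2, Chic2, Sgcb, Dcun1d4 and Rasl11b. It ended sharply: Slain2 before it had 19.2 and 22.7 CPM, and Kit and Kdr after it, the receptor genes next to Pdgfra, were lower in the tibial tumour (6.41 against 9.78 CPM and 20.6 against 83.7 CPM). Pdgfra and Ociad2 were the members that rose against NG2 cells.

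The third run (chr9:6168584-9239101) went from Pdgfd to Arhgap42, 18 genes of which 16 passed, with a median log2 ratio of 5.16. Summed CPM were 856 and 1070 in NG2 cells, 41290 in the tibial and 5820 in the spinal tumour, where Mmp13 gave 5232 of them. The transcriptional coactivator Yap1 was 44.1-fold and the apoptosis inhibitors Birc2 (126, 77.9, 987 and 26.6 CPM) and Birc3 (327, 236, 770 and 37.5 CPM) 37.1-fold and 20.5-fold higher in the tibial than in the spinal tumour. Dcun1d5, a neddylation factor, reached 5976 against 169 CPM and Tmem123 3071 against 110 CPM. Among the matrix metalloprotease genes of the cluster, Mmp27 had 129 against 0.960 CPM. Mmp8, the neutrophil collagenase, had 1.69, 197, 179 and 1.96 CPM, so that NG2 cells 2 lay above the tibial tumour and the gene did not pass between the groups (edgeR adjusted p = 0.971). Mmp13 itself, 4.55-fold higher, was the least unequal of the members that passed, and Mmp12 and Trpc6 were the gaps. Casp12 before the run (17.1 and 64.3 CPM) and Jrkl after it (8.49 and 9.63 CPM) were not raised in the tibia.

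Without the tibial tumour, Birc2, Birc3, Fryl and Rbm48 turned to called falls, with log2 fold changes of -1.94, -2.91, -2.32 and -2.19. The 42 genes of the 3 runs took 6.1% of all counts of the tibial tumour, 0.693% of the spinal one and at most 0.236% of an NG2 cell library. With them dropped from the finished fit, 1988 genes rose and 2094 fell. The model was not refitted or rescaled without them, so this shows only that few of them were called. DNA was not measured, and nothing in these files gives a copy number.

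**Figure D3:**
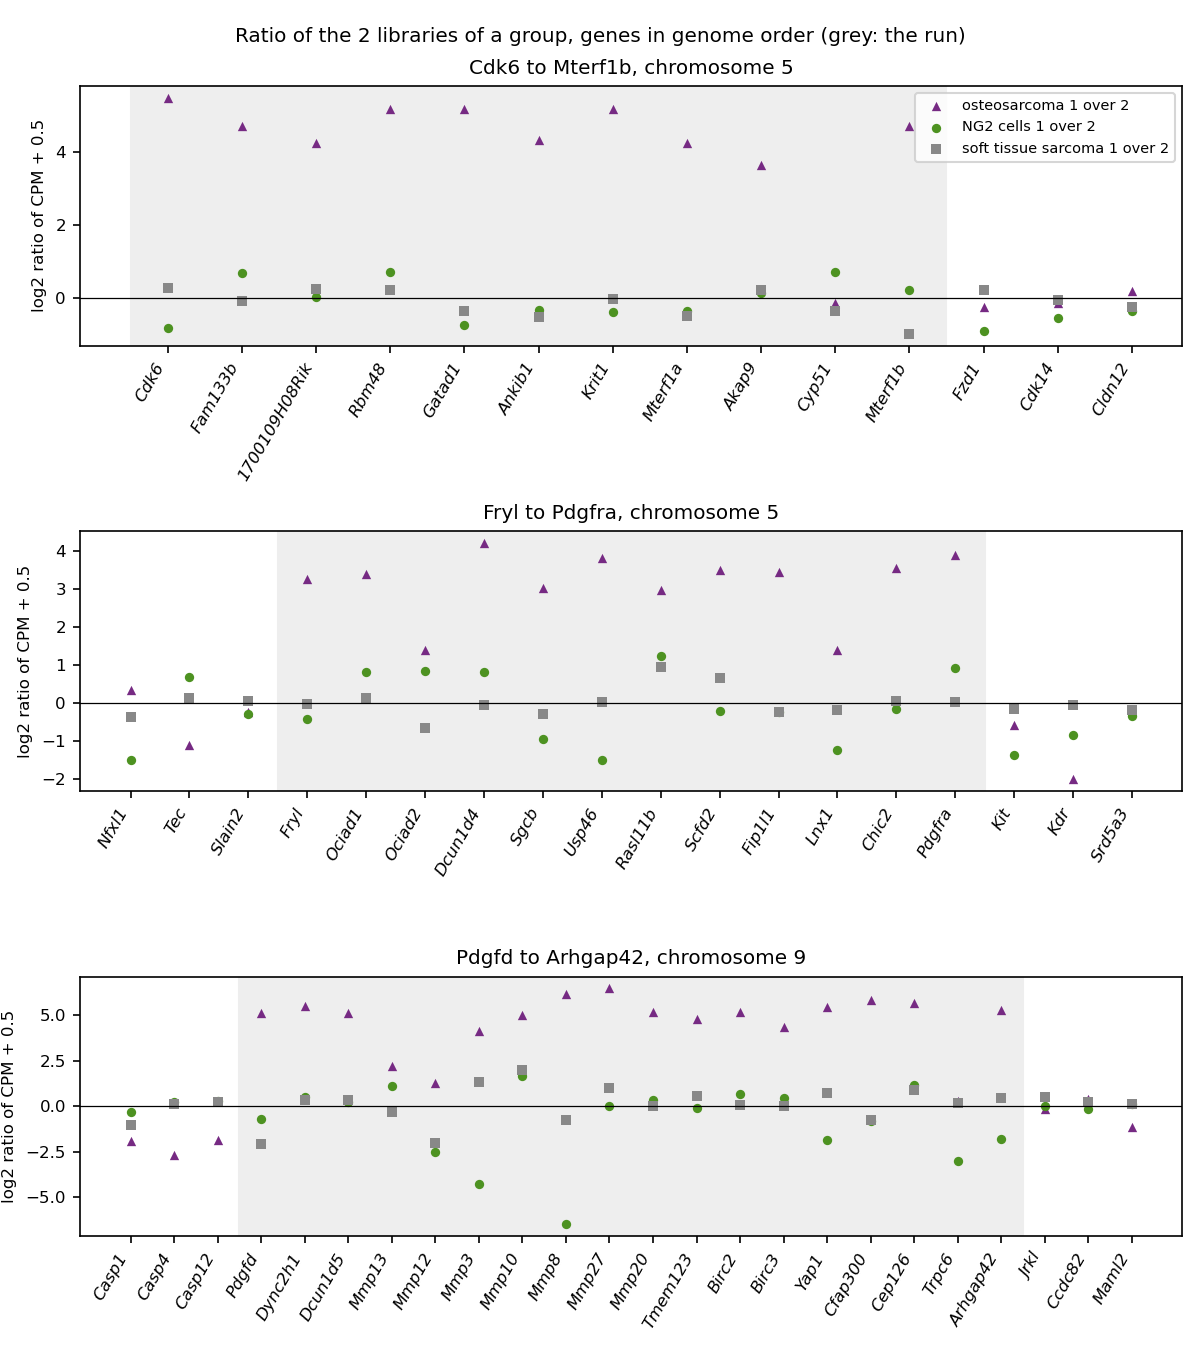
Log2 ratio of the first over the second library of each group (y axis, 0.5 CPM added) for most genes of the 3 runs and up to 3 neighbours on each side in genome order (x axis); grey shading marks the run. Purple triangles (osteosarcoma) stand at medians of 4.71, 3.43 and 5.16 inside the runs and return to near or below 0 outside them, while NG2 cells (green) and soft tissue sarcomas (grey) have medians from -0.23 to 0.25 there, with Mmp3 and Mmp8 far below 0 in NG2 cells.

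Over whole chromosomes the tumours also differed in small steps: the median log2 ratio of tibial over spinal tumour was -0.58 on chromosome 10, 0.42 on chromosome 8 and 0.32 on the X chromosome, while the NG2 cell pair stayed within 0.05 of 0 on every chromosome given. The soft tissue sarcoma pair also differed, with medians from -0.16 on chromosome 16 to 0.35 on chromosome 14. These are medians over 667, 726 and 492 genes of 1 library per site and carry no test.

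Of 1474 protein-coding genes that rose and reached 20 CPM in a tumour, 1206 (81.8%) were within 2-fold of each other, 31 were over 4-fold higher in the tibia and 44 over 4-fold higher in the spine. Both tumours entered the test that chose these genes, which include some of the runs, so this closeness is a description. Among the most unequal, besides genes given above, Cfap300 of the third run was 57.7-fold, Col11a2 20.1-fold, Bmp3 13.5-fold and the ectonucleotidase Entpd3 8.67-fold higher in the tibial tumour. Higher in the spinal tumour were Ccn5 (51.5-fold; 8.60 against 443 CPM), a matricellular protein, the metallothionein Mt3 (37.9-fold), the apolipoprotein Apol6 (36.4-fold) and Asb4 (35.2-fold).

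**Figure D4:**
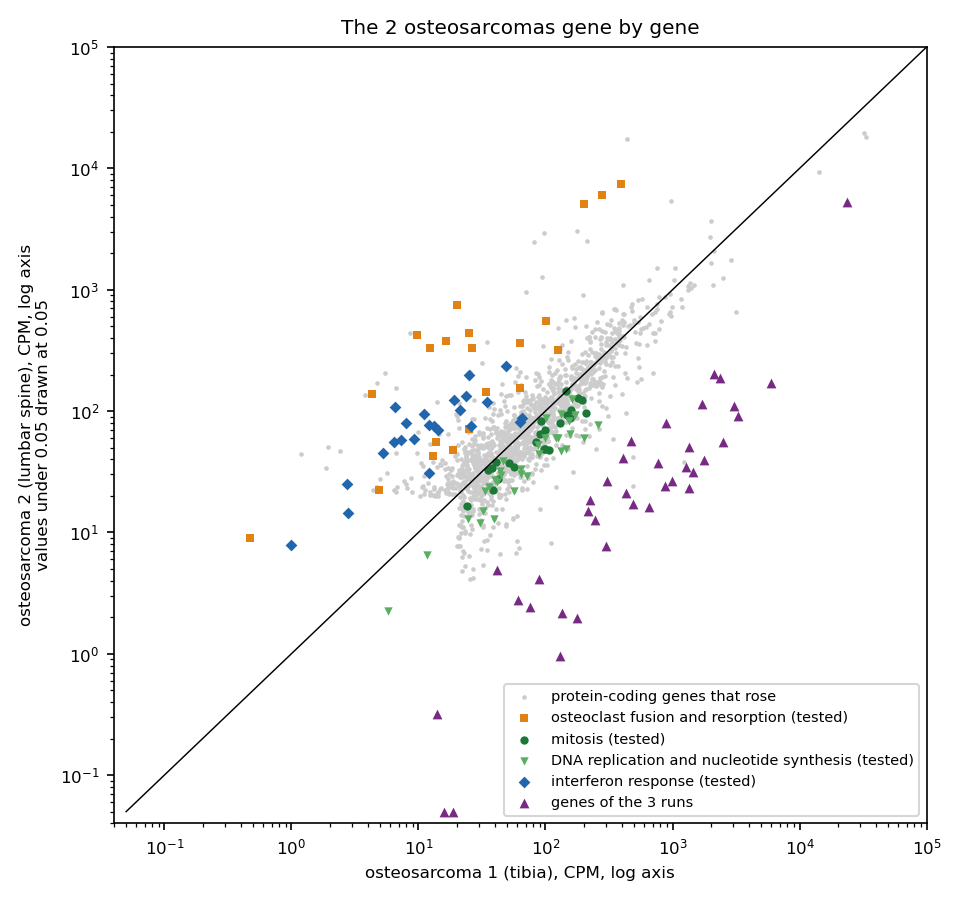
CPM of each gene in the tibial (x) and spinal (y) osteosarcoma, both on log axes, with the diagonal of equal values; grey points are protein-coding genes that rose. Osteoclast (orange) and interferon (blue) genes lie above the diagonal, mitosis and replication genes (green) below it, and the genes of the 3 runs (purple) far below it.

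Of 24 genes of endoplasmic reticulum folding and the unfolded protein response 3 rose and 2 fell: the translocon subunits Sec61b (81.5, 76.7, 273 and 411 CPM; 4.33-fold) and Sec61a1 (3.03-fold) and the translocon partner Ssr3 rose, and the stress targets Herpud1 (905, 829, 156 and 135 CPM) and Dnajb9 fell 5.97-fold and 5.95-fold. The 3 rises in this list were not called when either NG2 cell library was left out. Hspa5, the chaperone BiP, did not pass (4656, 2826, 1230 and 1794 CPM, edgeR adjusted p = 0.0537). Among 28 glycolysis and hypoxia genes 6 rose and 1 fell. Tpi1 rose 6.13-fold, Pgk1 3.61-fold and Ldha 2.66-fold (973, 773, 2881 and 1770 CPM), while the glucose transporter Slc2a3 fell 4.53-fold and Slc2a1 did not pass. In serine, one-carbon and amino acid supply 2 genes rose and 4 fell of 22. Shmt2 rose 3.53-fold, and glutamine synthetase, Glul, fell evenly (249, 255, 46.3 and 37.2 CPM; 6.03-fold). The amino acid transporters Slc3a2, Slc38a1 and Slc38a2 fell too. Among all tested genes 10.5% rose and 11% fell, and whether these lists differ from that share was not tested.

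Patterning and progenitor genes were partly exchanged. Of 22 tested limb and axial factors 6 rose and 3 fell, with a median of 3.60 that was 0.0 without the spinal tumour. Leaving out NG2 cells 1, NG2 cells 2, the tibial or the spinal tumour gave 5, 3, 3 and 5 risen factors. Shox2, a homeobox gene of the proximal limb, had 0.471, 0.527, 39.6 and 104 CPM (144-fold, edgeR adjusted p = 0.00552). Pax9, a factor of the sclerotome from which vertebrae form, had no count in NG2 cells and similar values in the tibial and the spinal tumour (9.53 and 9.14 CPM). Tbx2, Tbx15, Tbx18 and Hoxc9 rose, while Tbx3 fell 19.1-fold (45.5, 59.3, 2.60 and 2.88 CPM), and Tcf15 and Hoxd8 fell. Of 24 mesenchymal progenitor factors 7 rose and 1 fell. The limb bud factor Prrx1 had 2.99, 4.29, 178 and 88.0 CPM (36.5-fold) and the tendon factor Scx rose 81.6-fold. Imprinted and oncofetal genes had 3 rises in 16, Peg10, Plagl1 and Mest, not called when either NG2 cell library was left out. H19 and Igf2bp1, high in the spinal and the tibial tumour respectively (33.3 and 18.4 CPM), did not pass.

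Proteins studied as surface targets in osteosarcoma included 5 that rose and 2 that fell of 17. Lrrc15 is given above, Cd276, an immune checkpoint ligand known as B7-H3, had 0.914, 1.81, 38.8 and 117 CPM (57.1-fold, edgeR adjusted p = 0.00843), and the receptor kinase Axl rose 2.64-fold. The synthase of the target glycolipid GD2, B4galnt1, was lower in the tumours without passing (144, 68.7, 37.1 and 35.7 CPM, adjusted p = 0.0517). Cd47, the signal that restrains phagocytes, fell 2.44-fold.

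Antigen presentation divided by class. Of the 11 class II genes 10 fell, with a median of -6.06: H2-Aa went from 13810 and 7589 to 55.9 and 101 CPM and Cd74, the invariant chain, from 5213 and 2739 to 19.7 and 34.8 CPM, 136-fold and 146-fold. Ciita, the transactivator of class II genes, fell 76.4-fold. The 12 class I genes had a median log2 fold change of -0.25, which was -1.41 without the spinal tumour and 0.18 without the tibial one. None of them was called by edgeR (1 had an unadjusted p under 0.05, and DESeq2 called 1 lower). B2m had 1599, 2154, 583 and 1771 CPM (edgeR adjusted p = 0.391), and all 12 were lower in the tibial than in the spinal tumour. In the same direction, none of 23 interferon response genes was higher in the tibial tumour (median log2 ratio -2.49), and Irf1 alone was called, 2.94-fold lower than in NG2 cells. Irf7 had 25.01 CPM in the tibial and 199 CPM in the spinal tumour.

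Of 31 chemokines and receptors 17 fell and none rose. Cxcr4 had 192, 160, 3.96 and 5.48 CPM (37.3-fold lower), Cxcl1 fell 166-fold and Ccl4 43.0-fold. Checkpoint genes fell in 6 of 15 cases, among them Cd274, which encodes PD-L1 (157, 134, 1.38 and 6.51 CPM; 36.8-fold lower), and Cd86 (50.9-fold). The falls of class II, chemokine and checkpoint genes were counted in 9 to 10, 9 to 18 and 3 to 6 members when 1 library was left out.

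Several lists of markers for other cells differed between the groups. All 11 B cell markers fell (median -7.70), with Ms4a1 at 784, 312, 0 and 0 CPM, and 7 of 13 T and NK cell markers fell, their sum going from 619 and 661 to 5.40 and 23.6 CPM. Dendritic cell markers fell in 4 of 10 cases and their sum from 313 and 336 to 97.8 and 74.6 CPM. Neutrophil markers fell in 6 of 11 cases, but their sum was 58.2 CPM in NG2 cells 1 and 2611 CPM in NG2 cells 2, and no member fell without either osteosarcoma. Of 8 mast cell markers 1 fell, with sums of 544, 1413, 6.86 and 22.8 CPM, and of 6 tested erythroid markers none was called by edgeR (4 had an unadjusted p under 0.05, and DESeq2 called 5 lower). The part of these cells in the immune gene groups was not tested.

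Endothelial markers fell in 4 of 13 cases (sums of 1141, 1945, 207 and 617 CPM), Schwann cell markers in 5 of 11 (600, 613, 250 and 154 CPM) and adipocyte markers in 2 of 6 tested (445, 886, 23.3 and 52.4 CPM). All 12 pericyte markers had counts in both NG2 cell libraries, Rgs5 at 772 and 1290 CPM, and their sums of 957 and 1517 CPM stood below those of the B cell markers (5657 and 2174 CPM). In osteosarcoma Rgs5 fell 21.2-fold (to 17.4 and 79.9 CPM), Pdgfrb and Mcam rose 9.02-fold and 4.44-fold, and Cspg4, the antigen of the sort, did not pass (38.6, 30.6, 118 and 37.7 CPM, edgeR adjusted p = 0.212). The calls of Rgs5, Pdgfrb and Mcam were lost when either NG2 cell library was left out. The median log2 fold change of the 12 pericyte markers was 0.83. It was 0.28, 1.29, 0.47 and -1.11 without NG2 cells 1, NG2 cells 2, the tibial and the spinal tumour. Smooth muscle markers gave 1 rise and 2 falls in 10, and 1 of 12 fibroblast markers rose, Pdgfra. Macrophage markers gave 4 rises, C1qa, C1qb, C1qc and Csf1r, of 3.84-fold to 5-fold, and 1 fall, Marco, in 12. None of them rose without either NG2 cell library, and without NG2 cells 1 their median was -0.19.

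Muscle markers separated the tumours. Muscle fibre genes summed to 112 and 101 CPM in NG2 cells, 18.6 CPM in the tibial and 1349 CPM in the spinal tumour, and none of 12 tested was higher in the tibia. Acta1, skeletal actin, had 65.2, 49.6, 3.77 and 859 CPM and did not pass (edgeR adjusted p = 0.346). Of 10 satellite cell and myoblast markers 1 rose, Cdh15, and 3 fell. Their median log2 fold change was 0.62, and -2.95 without the spinal tumour. Pax7, a marker of satellite cells in that list, went from 2.58 and 8.69 CPM to no count in either tumour.

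**Figure D5:**
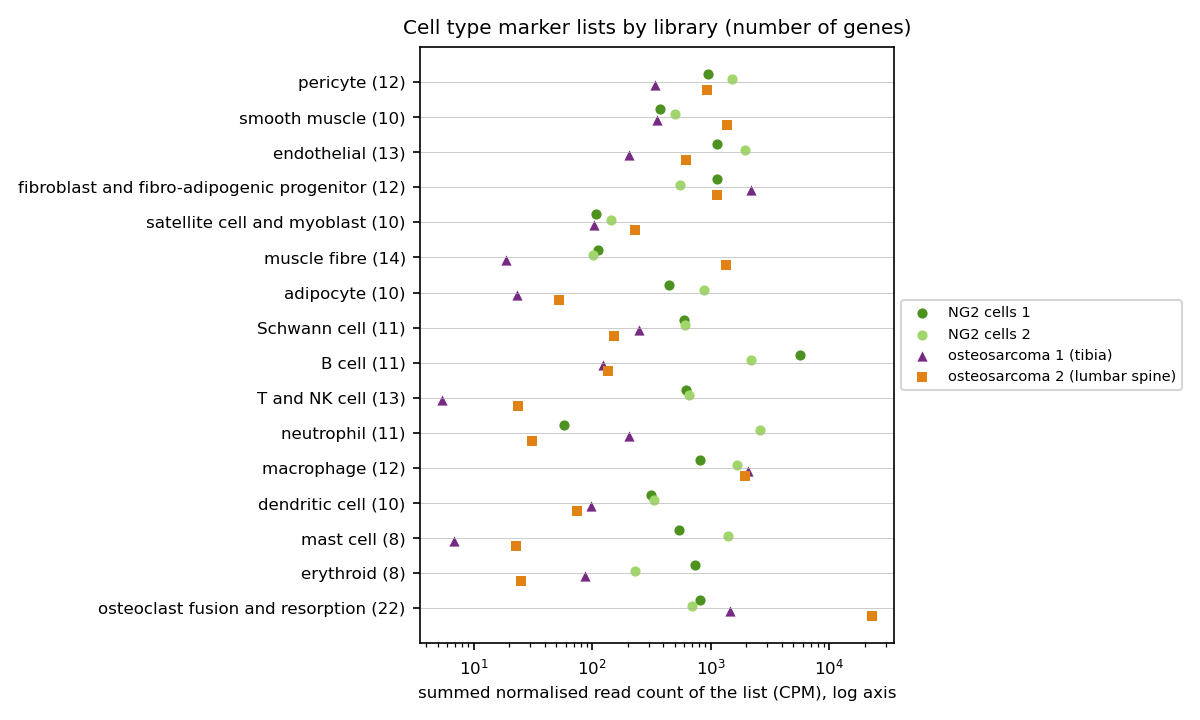
Summed CPM on a log axis (x) of 15 cell type marker lists and the osteoclast list (y, with the number of genes) in the 4 libraries. Lymphocyte, mast cell and adipocyte lists are higher in both NG2 cell libraries (circles), and the spinal tumour (squares) stands out at 23170 CPM for osteoclast and 1349 CPM for muscle fibre genes.

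To ask which changes differed from those of another tumour of the same genotype, osteosarcoma was compared with the 2 soft tissue sarcomas in the same model. Of 19024 genes 27 were called (0.142%), 11 higher (0.0578%) and 16 lower (0.0841%) in osteosarcoma. For Alpl the osteosarcomas had 407 and 1103 CPM against 2.18 and 1.72 CPM (log2 8.59 ± 0.67, edgeR adjusted p = 0.0428). Col22a1 had 174 and 63.7 against 0.788 and 1.01 CPM (log2 7.05 ± 0.72). Among genes outside the lists, Gpx3, a secreted glutathione peroxidase, was higher (1958 and 2698 against 94.8 and 66.8 CPM), as were Insc, Ppfia2, Kcnk1 and Wnt4. Lower in osteosarcoma were Pdpn (2.71 and 4.37 against 159 and 205 CPM), Tbx3 (2.60 and 2.88 against 85.3 and 98.1 CPM), Vcam1, Ccl2, Ccl7 (30.4 and 29.7 against 352 and 379 CPM) and the AP-1 factor Fosl1 (6.75 and 4.16 against 159 and 239 CPM), with Fez1, Efemp1 and Acpp outside the lists. Xist was among the higher genes, and the soft tissue sarcomas nearly lacked it (0.0839 and 0.135 CPM). The other bone, collagen and osteoclast genes given above did not pass this test, so a difference between the tumour types was not shown for them, and edgeR called no gene without either soft tissue sarcoma (1558 and 1576 genes at an unadjusted p under 0.05) or without either NG2 cell library (3106 and 3084).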

How the data were processed

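Total RNA was copied from an oligo(dT) primer, per the labels' protocols, and sequenced. The authors deposited raw read counts per Ensembl gene; the aligner STAR, the counter HTSeq, Trim Galore with cutadapt, FastQC, and DESeq2 are named, with GRCm38 and mm10 but no versions, per the submitters' processing notes. Strand setting and handling of shared reads are not given in the sources used here, so overlapping and near-identical genes are uncertain. Per the labels' protocols, cDNA was amplified by PCR, and no molecular identifiers are named, so bounds from counts cover counting error only. Symbols and positions came from GENCODE M21 (36639 of 38561 IDs).

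From these counts, edgeR 4.0.16 (R 4.3.3) fitted 1 model to all 6 libraries (TMM, filterByExpr with min.count 10 and min.total.count 15, quasi-likelihood F tests, Benjamini-Hochberg over 19024 genes, 3 residual degrees of freedom, biological coefficient of variation 0.578). The script was tested on simulated data. CPM are TMM-scaled. For a group without counts a fold is a lower bound from 3 counts over the group, and for 1 to 3 counts no fold is given. A permutation test of 2 against 2 cannot go below 0.333.

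The members, gene lists and tests were chosen with earlier results of these data known. Named genes are key members of the lists and up to 5 called members per list and direction by p. Among protein-coding genes they include the 12 smallest p each way, the 12 highest CPM and the 8 most unequal risen genes each way. Members of extreme windows of 25 neighbouring genes were also named. The alternatives were DESeq2 1.42.0, RLE and total-count scaling, no filter, only the 4 libraries, a replicate block, leaving out immunoglobulin and haemoglobin genes, and leaving out each library. The run rule was added after seeing the data. Results for some genes are not reported here.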

Additional observations from a re-analysis of the deposited data

Results flagged for a closer look

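For 6 of the list genes named in the text by the naming rule, the change in osteosarcoma differed from that in soft tissue sarcoma by the test of the difference itself (edgeR, adjusted over 19024 genes). The list members Ccl7 (-3.6, adjusted p = 0.0434) and Fosl1 (-5.18, adjusted p = 0.0428), named after their values were seen, also passed. As log2 differences of osteosarcoma from soft tissue sarcoma the 6 were 8.59 for Alpl and 7.05 for Col22a1, which were higher, and -5.07 for Tbx3, -5.69 for Pdpn, -4.0 for Ccl2 and -2.77 for Vcam1, which were lower. In each case both osteosarcoma libraries lay on one side of both soft tissue sarcoma libraries. Passing the test with 2 libraries a group all but requires this, so it adds no support. Both comparisons with NG2 cells share the same control libraries.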

How the results depend on the processing

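Calls depended on the tool and the libraries more than on scaling. Against 1992 higher and 2094 lower genes, DESeq2 called 3363 and 3531, and the fit of only the 4 libraries 808 and 1275. Leaving out 1 library gave 566 to 1595 higher and 712 to 1834 lower. With a replicate block 1247 rose and 1413 fell; same-numbered replicates deviated with a correlation of 0.049 over genes, so the numbers were taken as names only. Other scalings and filters stayed within 1.5 times.

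Of 296 called named genes, 295 stayed called with DESeq2, 193 with only the 4 libraries, 231 with the replicate block, and 149, 138, 240 and 251 without NG2 cells 1, NG2 cells 2, the tibial and the spinal tumour; none changed sign in these settings. Over all lists 216 members rose and 137 fell; with only the 4 libraries 123 rose, with DESeq2 220 fell, and without 1 library 89 to 223 rose and 61 to 188 fell.

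Uncalled genes that became called in the other direction were Birc2, Birc3, Fryl and Rbm48 without the tibial tumour, and Des, Grem1 and Mdk without the spinal one. With 1 library left out their log2 fold changes spanned -1.94 to 3.29, -2.91 to 1.47, -2.32 to 0.99, -2.19 to 3.09, -5.1 to 3.11, -8.61 to 2.51 and -2.5 to 2.78. Against soft tissue sarcoma (11 higher, 16 lower), DESeq2 called 772 and 1144, no filter 162 and 247, the replicate block 4 and 4, only the 4 libraries 0 and 0 (3073 genes at an unadjusted p under 0.05), and leaving out 1 library 0 to 132 and 0 to 183. The highest and lowest medians of 25 neighbouring genes, 4.34 and -1.81, became 0.741 and -0.933 over 51 genes. With a log2 ratio over 1 there were 6 runs in place of 3. The cause of these shifts was not tested. With 2 libraries a group, few changes of moderate size can pass, and genes of a few counts set no fold.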
